A study of Mus musculus with 6 samples.

Results

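H3K27ac, the acetylation of lysine 27 of histone H3 that marks active promoters and enhancers, was described at 4 genes that encode lysosomal proteins of macrophages: Lyz2, Ctsd, Ctsb and Cd68. The genes were chosen by name, and every peak called within the gene and about 10 kb on each side was taken as a member. This gave 37 of 79419 peaks in all, with 10 of 29276 in wild type, 11 of 25666 in the Bmal1 knockout (Bmal1KO) and 16 of 24477 in the Mfp2 knockout (Mfp2KO). All peaks come from RAW264.7 cells, a macrophage-like mouse cell line, and the labels name no stimulus for any genotype. The control cells are labelled wild-type and their libraries are titled Naive. Bmal1 encodes a clock transcription factor that drives circadian rhythms, and Mfp2 (Hsd17b4) encodes an enzyme of peroxisomal β-oxidation. The labels do not state whether a knockout line is 1 clone.

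There was 1 ChIP library and 1 input library per genotype, so there is no replicate spread, no difference below was tested between genotypes, and each difference is one between libraries. ChIP depth was 15.8 M, 12.5 M and 15.8 M tags for wild type, Bmal1KO and Mfp2KO, and the share of tags in peaks in the authors' deposited headers was 38.71%, 37.35% and 57.15%. Tags are given per 10 M tags of the library, as the authors scaled them. Sums of tags or input are over the sequence called in each list, so they move with the length called, and called length and values per kb are given beside them. Intervals are 95% intervals for counting error only. Over all regions called in both wild type and a knockout, the log2 tag ratio (knockout over wild type) had a median of -0.25 for Bmal1KO and 0.43 for Mfp2KO, and the ratios below are to be read against these medians. For regions with a mean of at least 100 tags over the 3 lists, the medians were 0.05 and 0.72. The term median region below refers to all regions. In bulk samples, a mark in fewer cells and less of the mark per cell cannot be told apart. Positions of peaks are in build mm39. Positions of gene ends are those of the rule, rounded to 1 kb, and which gene a peak acts on was not measured. Distances of less than about 1 kb from a gene end are within this rounding.

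Lysosomes are acidic organelles in which macrophages break down what they engulf. Lyz2 encodes lysozyme M, which cleaves bacterial cell walls, and is widely used as a marker of myeloid cells. Ctsd encodes cathepsin D, an aspartic protease, and Ctsb encodes cathepsin B, a cysteine protease. Cd68 encodes a heavily glycosylated protein of lysosomal and endosomal membranes that is related to the LAMP proteins and is used as a macrophage marker. Many lysosomal genes carry a CLEAR element, which the factors TFEB and TFE3 bind and which contains the E-box letters CACGTG. The same E-box letters are bound by BMAL1 with its partner CLOCK.

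The sequences just before the start of the genes are shown because the densest Ctsd peak of both knockouts covered its approximate 5′ end and because the genes differ in whether they hold such an E-box. RefSeq promoters were matched for 3 of the 4 genes. Each run is the 250 bases before the gene start, 5′ to 3′ on the gene's strand, and capitals mark any of the letters CACGTG (E-box), TCACGTGA (core of the CLEAR element), GAGGAAGT (PU.1), TGACTCA (AP-1) or TTGCGCAA (C/EBP), read on both strands. The E-box lies within the CLEAR core. The positions of these runs are in GRCm38.p6 and cannot be set against the mm39 positions of the peaks.
Ctsd (GRCm38.p6 chr7:142387828-142388077, minus strand): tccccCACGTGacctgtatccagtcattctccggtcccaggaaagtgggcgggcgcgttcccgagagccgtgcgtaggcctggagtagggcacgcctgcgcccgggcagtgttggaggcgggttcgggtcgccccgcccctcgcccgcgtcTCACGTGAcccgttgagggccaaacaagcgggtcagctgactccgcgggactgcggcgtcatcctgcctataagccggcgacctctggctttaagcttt
Cd68 (GRCm38.p6 chr11:69666171-69666420, minus strand): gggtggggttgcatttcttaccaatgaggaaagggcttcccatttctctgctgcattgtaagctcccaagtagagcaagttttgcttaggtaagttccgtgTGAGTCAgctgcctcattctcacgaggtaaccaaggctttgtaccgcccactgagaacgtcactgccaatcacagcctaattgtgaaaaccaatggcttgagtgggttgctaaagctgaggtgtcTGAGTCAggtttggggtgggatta
Lyz2 (GRCm38.p6 chr10:117282273-117282522, minus strand): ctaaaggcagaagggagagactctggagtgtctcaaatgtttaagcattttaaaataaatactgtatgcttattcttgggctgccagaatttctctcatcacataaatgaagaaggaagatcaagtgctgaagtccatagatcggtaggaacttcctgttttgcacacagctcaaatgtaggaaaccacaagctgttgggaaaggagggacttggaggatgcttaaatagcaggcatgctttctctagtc

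Only Ctsd of the 3 held the E-box. One copy spanned bases 245 to 240 before the gene start, and the other spanned bases 98 to 93, inside a CLEAR core from base 99 to base 92. Of 32851 RefSeq promoters of the same length, 6.02% held the E-box letters and 0.785% the CLEAR core. In Cd68 the AP-1 letters were read on the reverse strand at bases 149 to 143 and 24 to 18, and 4.46% of all promoters held them. None of these letters was found in the 250 bases shown for Lyz2. Among 59 other lysosomal genes chosen by name, 49 had a promoter in the table, and 12 of these held the E-box, among them Lamp1 (a lysosomal membrane protein), Ctsa, Ctsl and Lgmn (proteases) and Mcoln1 (a lysosomal cation channel). The CLEAR core was found for 4 of the 49, namely Atp6v1a, Ctsa, Gla and Mcoln1. By promoter, 19.4% of the 62 promoters of the 49 genes held the E-box and 6.45% the CLEAR core. The AP-1, PU.1 and C/EBP letters were in 6.45%, 3.23% and 1.61% of the 62, against 4.46%, 2.44% and 0.164% of all promoters. A match to these letters is a description of sequence, and binding was not measured. H3K27ac at these other genes was not analysed here, since their positions were at hand only in GRCm38.p6.

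All 4 genes had called peaks in every genotype, and Lyz2 was the weakest of them in each. In wild type the summed tags were 219.8 at Lyz2, 723.7 at Ctsb, 956.1 at Ctsd and 1026.7 at Cd68. In Bmal1KO they were 38.3 at Lyz2, 379.8 at Ctsb, 410.9 at Ctsd and 1522.2 at Cd68. In Mfp2KO they were 78.8 at Lyz2, 868.8 at Ctsd, 1055.8 at Ctsb and 2080.5 at Cd68. Cd68 was thus highest in each list by this sum, but part of the sum lies toward a neighbouring gene, as given below. The region overlapping Cd68 alone held 591.7 tags in wild type and 555.8 in Mfp2KO, below both Ctsb and Ctsd. In Bmal1KO that region held 647 tags, above both. Per kb of called sequence, Cd68 was again highest, with 95.7, 178 and 206 tags per kb in wild type, Bmal1KO and Mfp2KO, and Lyz2 lowest, with 22.9, 15.1 and 20.0. The region overlapping Cd68 alone had 91.7, 114 and 103 tags per kb. Both macrophage markers among the 4 genes thus had called peaks in each genotype, although those of Lyz2 in Bmal1KO held only 8.78 to 10.8 tags each. Other markers of the cell type were not examined.

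**Figure D1:**
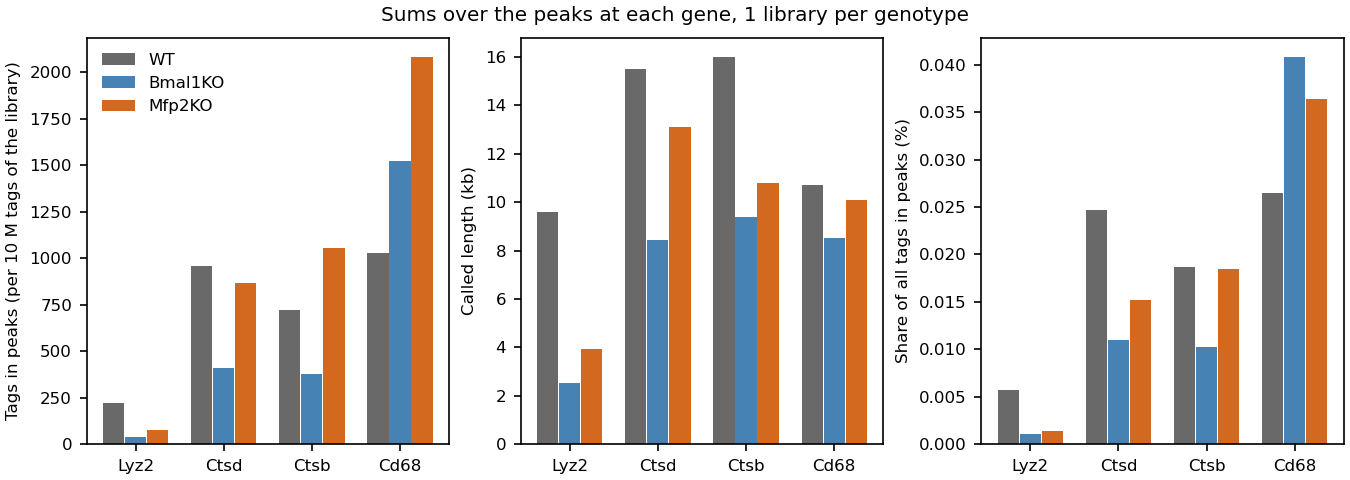
Summed normalized tags (per 10 M tags of the library), called length (kb) and share of all tags in peaks (%) at each gene, with 1 bar per genotype and 1 library behind each bar. Bmal1KO is below wild type in tags at Lyz2 (38.3 against 219.8), Ctsd and Ctsb and above it at Cd68 (1522.2 against 1026.7), and called length is below wild type at each gene in both knockouts. The median length over all peaks was also below wild type in both, at 1421 bp in Bmal1KO and 1613 bp in Mfp2KO against 1707 bp.

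By tags summed over the window, Lyz2 was below wild type in both knockouts, with the largest log2 ratio in size of the 4 genes in each, although by tags per kb the ratio to wild type was further from 1 at Cd68 in both knockouts. In wild type 3 peaks lay in the window. The longest, chr10:117116475-117121614, held 138.4 tags over 5139 bp and covered the approximate 5′ end of the gene. The others held 32.6 tags over 1710 bp (chr10:117109999-117111709) and 48.8 tags over 2751 bp (chr10:117122461-117125212). In Bmal1KO 4 short peaks of 500 to 735 bp were called, with 8.78 to 10.8 tags each. The nearest to the approximate 5′ end, chr10:117117793-117118293 with 9.57 tags, was 707 bp from it, a distance within the rounding of that end. Mfp2KO also had 4 peaks. The strongest of these, chr10:117120096-117122272, held 48.8 tags over 2176 bp, and the one nearest to the approximate 5′ end, chr10:117118685-117119185, held 6.65 tags. Which knockout peak, if any, lies at the start of Lyz2 cannot be told from these positions. The low knockout values are therefore small pieces of what was called as longer stretches in wild type.

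Summed over the Lyz2 window, tags were 5.74-fold lower in Bmal1KO than in wild type (log2 ratio -2.52, interval -2.96 to -2.08) and 2.79-fold lower in Mfp2KO (log2 ratio -1.48, interval -1.77 to -1.18). The called length was 26.4% and 41.1% of the 9600 bp called in wild type. Tags per kb of called sequence differed less, at 0.660 and 0.872 times wild type. The Bmal1KO peaks, at 13.6 to 19.1 tags per kb, stood from the upper 69.1% to the upper 97.2% of their list. Weaker sequence is not called, so tags per kb had little room to be lower. The difference therefore cannot be divided between called length and tags per kb. For the central region (chr10:117116475-117122272) the log2 ratio was -2.91 in Bmal1KO (-3.53 to -2.30), and 1.10% of all regions called in both lists had a lower ratio. In Mfp2KO it was -1.32 (-1.68 to -0.96), with 14.1% of regions lower. The tag minimum for a window was 9 in Bmal1KO and 10 in the other lists, and sequence below the minimum is not called.

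Input in the called sequence of the central Lyz2 region was lower in the knockouts too, at 17.5 tags per 10 M tags for wild type, 3.11 for Bmal1KO and 4.29 for Mfp2KO. Per kb of called sequence, input in that region was 3.4, 2.76 and 1.6 for wild type, Bmal1KO and Mfp2KO. Over the whole window it was 3.33, 1.70 and 2.17 per kb, so the order of the knockouts differed. The part of input in the result was not tested. Fold over input ranged from 5.17 to 7.91 in wild type, from 4.94 to 23.67 in Bmal1KO and from 4.87 to 13.90 in Mfp2KO, where the authors' limit was 4.

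The gene next to Lyz2 on the side of its 5′ end is Lyz1, its close relative, which encodes the lysozyme of Paneth cells. The 250 bases before Lyz2 and Lyz1 were identical at 200 of 252 aligned columns, or 79.4%. Reads that fit both copies can be placed at either gene, and no label or header states how reads that map to several places were treated. The share of such reads was not examined, so how far the division of tags between Lyz2 and Lyz1 is uncertain is not known. The stretch beyond the window on that side was also lower in the knockouts, a look at the data made after the values were seen. In those 15 kb wild type had 3 peaks with 187.1 tags, Bmal1KO 1 peak with 10.0 tags and Mfp2KO 2 peaks with 27.2 tags. On the other side of the window no list had a peak within 15 kb. The same look beyond the Cd68 window, on the side of Eif4a1, gave 794.4 tags over 12281 bp in wild type, 309.1 over 3117 bp in Bmal1KO and 989.6 over 6721 bp in Mfp2KO, so Bmal1KO was lower there and higher within the window. Beyond the windows of Ctsd and Ctsb no list had more than 41.9 tags on a side.

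At Ctsd, one of the longest wild-type peaks was called as 3 shorter pieces in each knockout. The wild-type peak, chr7:141939652-141954641, spanned 14989 bp with 948.2 tags, 11.55-fold over input. It stood at rank 89 of 29276 by length and at rank 293 by tags. It covered the approximate 5′ end of the gene and reached into the sequence before it, away from the gene body, where the next gene is Syt8, a synaptotagmin. The only other wild-type peak of the window was short (chr7:141926773-141927273, 7.92 tags), and the nearest knockout peak was 12049 bp away.

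Within the Ctsd domain the knockouts had the same order of pieces. The piece at the 5′ end was chr7:141940490-141942628 in Bmal1KO, with 185.9 tags or 87.0 per kb, and chr7:141939322-141942401 in Mfp2KO, with 565.3 tags or 184 per kb. A second piece followed after a gap of 772 bp in Bmal1KO (chr7:141943400-141949711, 225 tags, 35.7 per kb) and of 958 bp in Mfp2KO (chr7:141943359-141949224, 205.6 tags, 35.1 per kb). The second pieces were close to each other in tags per kb, whereas the 5′ pieces were not. The third piece held 41.9 tags in Bmal1KO (chr7:141952066-141953607), which lies just outside the window, and 97.9 tags in Mfp2KO (chr7:141950788-141954911). Wild type had 63.3 tags per kb over its whole domain, and its tags within the 5′ part alone cannot be read from a single peak.

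Tags in called peaks of the Ctsd window were 2.33-fold lower in Bmal1KO (log2 ratio -1.22, interval -1.36 to -1.07), and close to wild type in Mfp2KO (log2 ratio -0.14, interval -0.24 to -0.03). The Mfp2KO value was 0.02 when peaks were cut at the window's edges and -0.70 when tags were taken as a share of all tags in peaks. With the third Bmal1KO piece included, the region as a whole (chr7:141939322-141954911) was at -1.07 in Bmal1KO (-1.21 to -0.93). A lower ratio was found for 20.2% of all regions called in both lists, and for 7.84% of those with a mean of at least 100 tags over the 3 lists. In Mfp2KO the region was at -0.13, with 34.0% and 18.5% of regions lower. Called length in the window was 54.5% of wild type in Bmal1KO and 84.4% in Mfp2KO, and tags per kb were 0.788 and 1.08 times wild type. The Bmal1KO difference was thus larger in called length than in tags per kb, although weaker sequence drops out of both. Input per kb of the called sequence of the region was close in the 3 lists, at 5.48, 5.85 and 5.49 tags per 10 M tags for wild type, Bmal1KO and Mfp2KO.

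Ctsb, like Ctsd, had a single long wild-type domain that was called in pieces in both knockouts. Whether this is particular to these genes was not tested, and long peaks were scarcer in both knockout lists as a whole. A peak of 6453 bp was in the upper 3.73% by length in wild type. One of 6311 bp was in the upper 1.11% in Bmal1KO, and one of 5865 bp in the upper 1.94% in Mfp2KO. Ctsb is transcribed toward higher coordinates, and its domain ran from the 5′ end into the gene, whereas most of the Ctsd domain lay before the gene. The wild-type domain, chr14:63358876-63373236, spanned 14360 bp with 685.4 tags, 8.97-fold over input, at rank 105 by length and rank 821 by tags. A further wild-type peak lay at the lower edge of the window (chr14:63348611-63350205, 38.3 tags), and no knockout peak overlapped it.

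Both knockouts had a strong piece that began within 126 bp of the approximate 5′ end of Ctsb. In Bmal1KO this piece was chr14:63359126-63362594, with 229.4 tags or 66.1 per kb. In Mfp2KO it was chr14:63359095-63362514, with 757.6 tags or 222 per kb. The next large piece lay inside the gene, at chr14:63365682-63370819 with 138.4 tags (26.9 per kb) in Bmal1KO and at chr14:63365679-63370543 with 250.3 tags (51.5 per kb) in Mfp2KO. The edges of these pieces differed by 31 and 80 bp for the first and by 3 and 276 bp for the second, although Mfp2KO had more tags in both. Over all 14995 pairs of peaks that overlap 1 to 1 between the knockouts, the median difference was 266 bp at the lower edge and 249 bp at the higher edge, and 32.6% had both edges within 300 bp. Of the 9 such pairs at the 4 genes, 6 had both edges within 300 bp.

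The 4 further Mfp2KO peaks at Ctsb were small. Those at chr14:63364064-63364564 and chr14:63371991-63372491 held 6.02 and 6.65 tags within the wild-type domain. The ones at chr14:63376222-63377245 and chr14:63384444-63384944 held 27.6 and 7.60 tags and were at least 2986 bp from any wild-type or Bmal1KO peak. Bmal1KO had a single small peak, chr14:63372008-63372782, with 12.0 tags. In the GRCm38.p6 table the bodies of Ctsb and its neighbour Fdft1, an enzyme of sterol synthesis, overlap at the 3′ end of Ctsb, so peaks there cannot be assigned to either gene.

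Summed over called peaks of the Ctsb window, tags were 1.91-fold lower in Bmal1KO than in wild type (log2 ratio -0.93, interval -1.08 to -0.78). In Mfp2KO they were 1.46-fold higher (log2 ratio 0.54, interval 0.44 to 0.65), but the ratio was -0.02 (-0.13 to 0.09) as a share of all tags in peaks and 0.11 relative to the median region, so the direction depended on the scale. Called length was below wild type in both, at 58.8% and 67.7%, while tags per kb were 0.893 times wild type in Bmal1KO and 2.15 times in Mfp2KO. The Bmal1KO difference was thus larger in called length than in tags per kb, although weaker sequence drops out of both. The Mfp2KO tags stood on less sequence. The domain itself was at -0.85 in Bmal1KO, with 26.4% of all regions and 12.2% of those with a mean of at least 100 tags lower, and at 0.57 in Mfp2KO, with 54.8% and 44.0% lower. The Ctsb ratio in Mfp2KO thus lay near the middle of all regions. Input per kb of the called sequence of the domain was 5.32, 4.70 and 6.51 tags per 10 M tags for wild type, Bmal1KO and Mfp2KO, highest in Mfp2KO, and its part in the result was not tested.

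**Figure D2:**
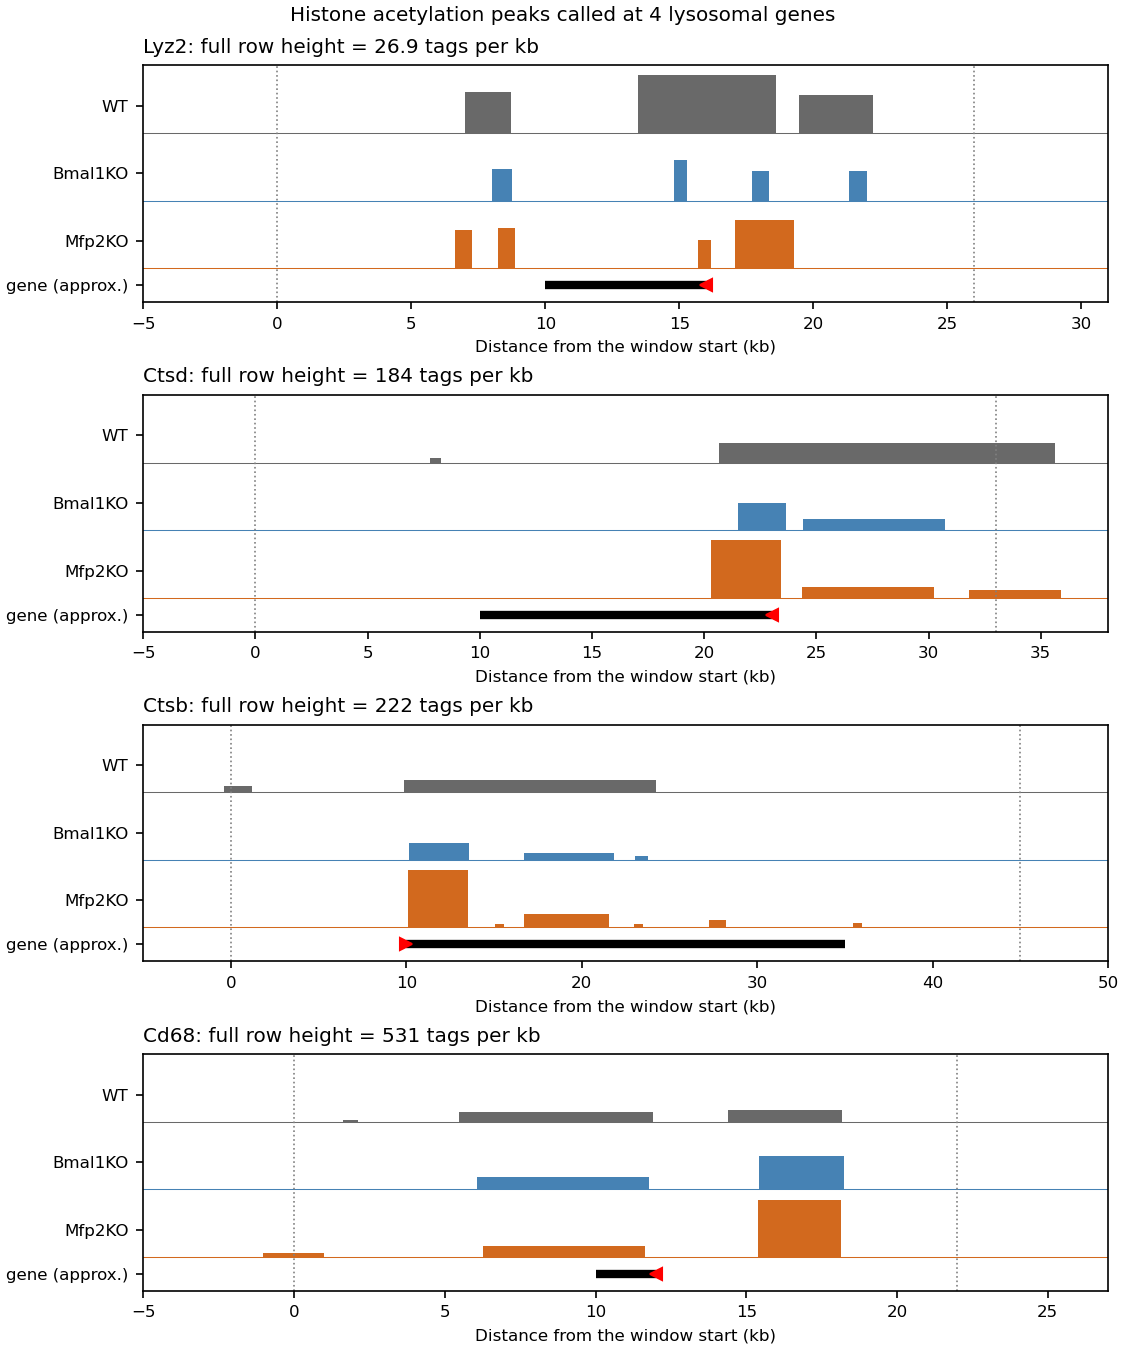
Called H3K27ac peaks at Lyz2, Ctsd, Ctsb and Cd68, with distance from the window start (kb) on the horizontal axis, 1 row per genotype and bar height in tags per kb, scaled within each gene to the value in the panel title. The black bar is the approximate gene, the red arrowhead its 5′ end and its direction, and dotted lines are the window's edges. The single wild-type domains at Ctsd (14989 bp) and Ctsb (14360 bp) are split in both knockouts, with the highest bars at the 5′ end, and the Bmal1KO piece of 41.9 tags just beyond the Ctsd window is not drawn.

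Cd68 differed from the other genes, since its window held 2 strong regions that behaved differently. The lower region overlapped the gene, extended past its 3′ end toward Mpdu1, and ended within 350 bp of its approximate 5′ end in each list. It was chr11:69551465-69557918 in wild type with 591.7 tags, chr11:69552064-69557761 in Bmal1KO with 647 tags, and chr11:69552262-69557650 in Mfp2KO with 555.8 tags. The log2 ratio was 0.13 in Bmal1KO (-0.01 to 0.26) and -0.09 in Mfp2KO (-0.22 to 0.04), and both intervals include 0. Relative to the median region, however, the log2 ratio was 0.38 in Bmal1KO and -0.52 in Mfp2KO, so the closeness depended on the scale. Regions with a mean of at least 100 tags had a median of 0.05 in Bmal1KO and 0.72 in Mfp2KO. The Bmal1KO ratio was near that median and the Mfp2KO ratio below it. Input per kb was 4.85, 5.45 and 5.36 tags per 10 M tags. Of all regions 65.8% had a lower ratio in Bmal1KO and 34.9% in Mfp2KO, and of those with a mean of at least 100 tags 54.1% and 19.5%.

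The higher region of the Cd68 window had more tags in both knockouts. It was chr11:69560400-69564172 in wild type with 427.4 tags or 113 per kb, chr11:69561406-69564247 in Bmal1KO with 875.2 tags or 308 per kb, and chr11:69561404-69564132 in Mfp2KO with 1447.7 tags or 531 per kb. The knockout peaks were shorter, at 2841 and 2728 bp against 3772 bp, and began about 1 kb further in, so the higher tags stood on less sequence. Tags were 2.05-fold higher in Bmal1KO (log2 ratio 1.03, interval 0.90 to 1.17) and 3.39-fold higher in Mfp2KO (log2 ratio 1.76, interval 1.64 to 1.88). A lower ratio was found for 95.1% of all regions in Bmal1KO and 88.2% in Mfp2KO. By tags per kb the Bmal1KO peak was in the upper 0.666% of its list and the Mfp2KO peak in the upper 0.286%, against the upper 8.30% for wild type.

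Input per kb of the called higher region was 7.49, 11.6 and 20.0 tags per 10 M tags for wild type, Bmal1KO and Mfp2KO, so it moved in the same direction as the tags. Fold over input was 15.12, 26.56 and 26.51, so on the scale of the authors' ratio the knockouts were nearly equal. The part of the higher knockout input in the result was not tested. On the side of this region the gene next to Cd68 is Eif4a1, which encodes a helicase of translation initiation, and on the other side it is Mpdu1, which is needed for protein glycosylation. The region began 2400 bp from the approximate 5′ end of Cd68 in wild type and 3404 bp from it in Mfp2KO. In GRCm38.p6 the 250 bases before Eif4a1 are at chr11:69672424-69672673, minus strand, and those before Cd68 at chr11:69666171-69666420. If this spacing holds in mm39, the start of Eif4a1 lies in or near the higher region. The gains there are thus not to be read as gains at Cd68 itself, and which gene the region acts on was not measured.

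Sums over the Cd68 window followed the higher region. Tags were 1.48-fold higher in Bmal1KO (log2 ratio 0.57, interval 0.47 to 0.66) and 2.03-fold higher in Mfp2KO (log2 ratio 1.02, interval 0.93 to 1.10). With the window shortened to the gene and about 2 kb on each side, only the lower region remained, and the ratios were 0.13 and -0.09. The higher region held 0.722 times the tags of the lower one in wild type, 1.35 times in Bmal1KO and 2.60 times in Mfp2KO, a comparison within each library that the scaling of libraries does not move. Input does move it, since the lower region was 18.91-, 20.87- and 19.25-fold over input and the higher one 15.12-, 26.56- and 26.51-fold. On that scale the 2 knockouts were close to each other. The remaining peaks of the window were small. A wild-type peak, chr11:69547619-69548119 with 7.60 tags, had no knockout peak over it, and an Mfp2KO peak, chr11:69544984-69546980 with 77.0 tags and 4.03-fold over input, was 639 bp from the nearest wild-type peak.

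Over the 4 genes, peaks of the 3 lists formed 13 regions where they overlapped, of which 7 were called in wild type and Bmal1KO and 6 in wild type and Mfp2KO. In Bmal1KO 5 of the 7 were lower by at least 1.5-fold, where 35.5% of all 17614 regions called in both lists were, and 1 of the 7 was higher, where 16.1% were. Of the 5, 3 lie in the Lyz2 window and are not independent of each other. In Mfp2KO 1 of the 6 was lower, where 24.8% of 16682 regions were, and 1 was higher, where 44.9% were. Relative to the median region the shares of all regions lower and higher were 27.0% and 25.3% in Bmal1KO, and 33.2% and 30.5% in Mfp2KO. Of the 13 regions 4, those of the Ctsd and Ctsb domains and the 2 strong ones at Cd68, had a mean of at least 100 tags over the 3 lists. In Bmal1KO 2 of these 4 were lower by at least 1.5-fold, where 19.8% of all regions with such a mean were, and 1 was higher, where 21.1% were. In Mfp2KO 0 of the 4 were lower, where 9.82% were, and 1 was higher, where 55.6% were. Members and regions are too few here to call any share particular to these genes.

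**Figure D3:**
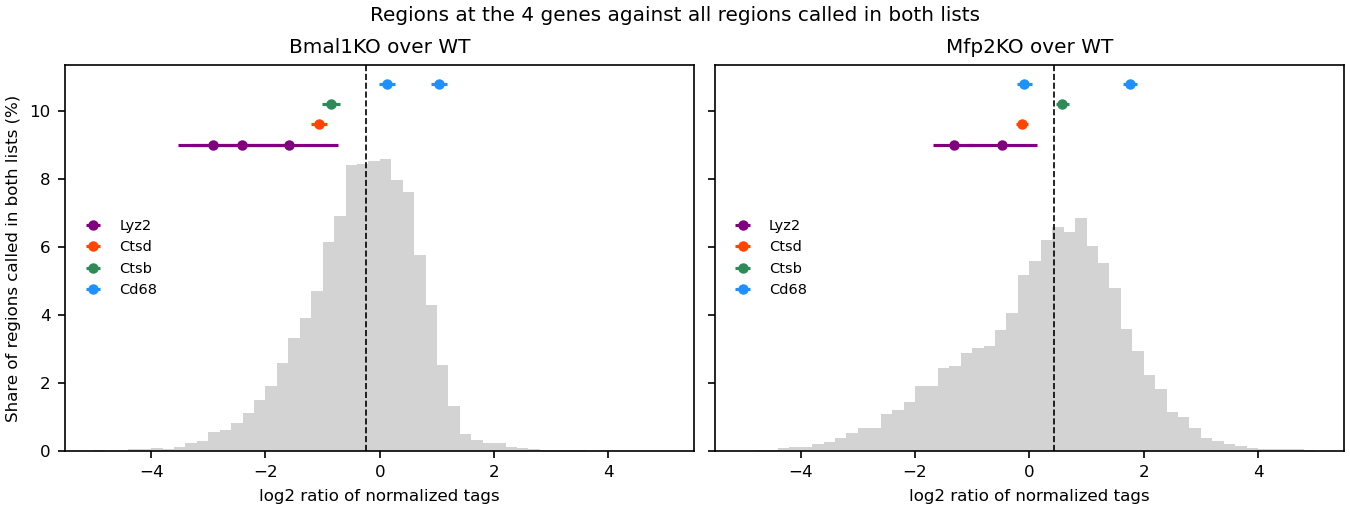
Distribution of the log2 ratio of normalized tags, knockout over wild type, for all regions called in both lists (grey bars, % of regions, values beyond 5 placed in the end bins), with the median as a dashed line. Points are the regions at each gene with 95% counting intervals, and their height only separates the genes. In Bmal1KO the central Lyz2 region is at -2.91 and the higher Cd68 region at 1.03, and in Mfp2KO they are at -1.32 and 1.76.

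Peaks without a counterpart were counted as well. In wild type 3 of 10 peaks lacked any overlap with a Bmal1KO peak, where 38.9% of all wild-type peaks had none, and 4 had no Mfp2KO peak, where 41.4% had none. Of these the 3 absent from both knockouts, at Ctsd, Ctsb and Cd68, held 7.92, 38.3 and 7.60 tags. The one absent from Mfp2KO alone was the Lyz2 peak with 48.8 tags, and an Mfp2KO peak ended 189 bp from it. In the other direction 0 of 11 Bmal1KO peaks lacked a wild-type peak, where 23.6% of all Bmal1KO peaks did, and 3 of 16 Mfp2KO peaks did, where 25.4% did. Each of the 17 peaks of over 100 tags at these genes had an overlapping peak in both other lists. Many of these peaks lie in the same regions, and the share over all peaks of over 100 tags was not computed. This count is therefore not a trait of these genes.

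Set among all peaks of their lists, the members spread over nearly the whole range of tags. By tags the long Ctsd and Ctsb domains were in the upper 1.00% and 2.80% of wild-type peaks, and by length in the upper 0.304% and 0.359%. In Bmal1KO the longest pieces of the same genes, of 6311 and 5137 bp, were in the upper 1.11% and 2.50% by length but only in the upper 22.2% and 29.3% by tags. The Lyz2 peaks of Bmal1KO stood low in their list, from the upper 77.6% to the upper 85.9% by tags. Cd68 was in the upper 1.84% by tags in Bmal1KO and the upper 1.28% in Mfp2KO, in both through its higher region.

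**Figure D4:**
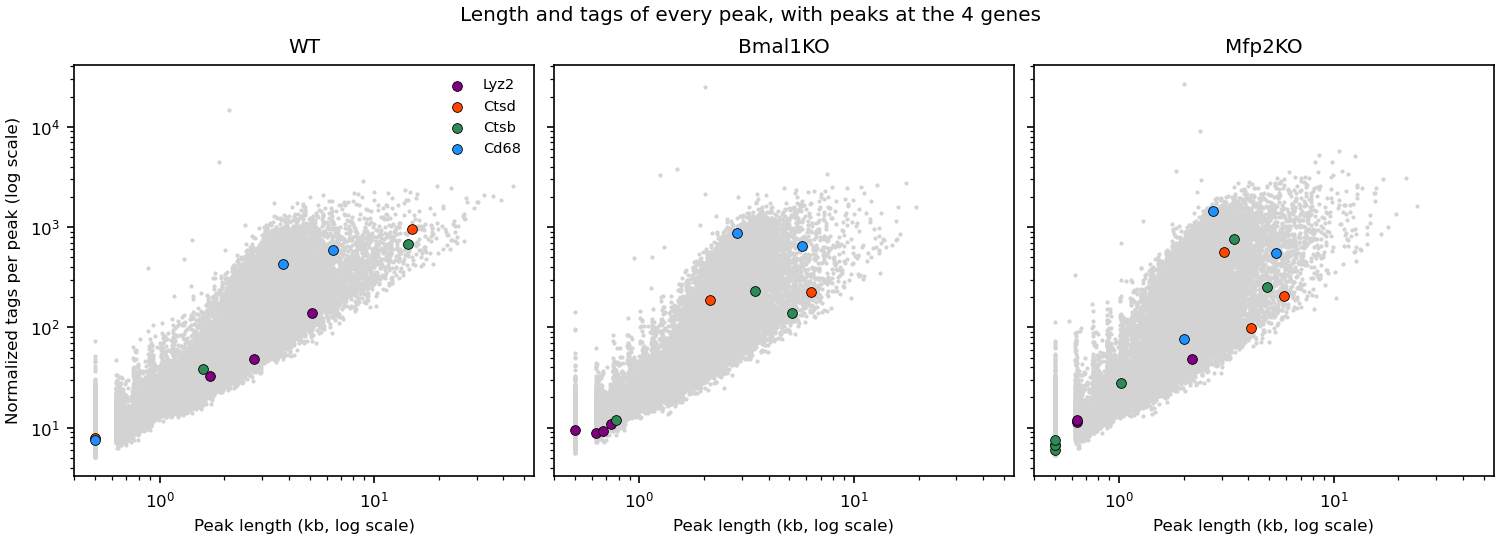
Length (kb, log scale) and normalized tags (log scale) of every peak in each list (grey), with peaks at the 4 genes in colour. The Ctsd and Ctsb domains of 14989 and 14360 bp stand at the long end in wild type, and in the knockouts no peak at these genes is longer than 6311 bp.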

How the data were processed

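H3K27ac ChIP-seq and input libraries came from wild-type, Bmal1KO and Mfp2KO RAW264.7 cells, 1 of each per genotype, grouped by title. The submitters' processing notes name HOMER 5.1, MACS3 3.0.3, Picard 3.4.0, SAMtools 1.23, BWA 0.7.19-r1273, fastp 1.0.1 and mm39, with no role or order. Per the file headers, the authors ran HOMER findPeaks (histone style) on each ChIP library with its genotype's input as control, stitched windows of 500 bp, and kept regions at a fold over input of 4 or more and a p-value of 0.0001 or less. Normalized tags were deposited as signal per 10 M tags. Deposited input tags, a signal at raw depth for wild type and Mfp2KO but at ChIP depth for Bmal1KO, were rescaled here to 10 M. Input depth derived from them was 14.9 M tags for wild type and 12.8 M for Mfp2KO. The deposited fold over input is the authors' ratio within a list, and their score was not used.

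Whole peaks overlapping a window by at least 1 bp were summed with Python 3.11.15 and pandas 2.3.3. Overlapping peaks of the 3 lists were joined into regions, and those called in wild type and a knockout were compared by the log2 ratio of tags, with Poisson intervals on unscaled tags that cover counting error only. The ratio step was tested on simulated lists with the same peak edges in both, so differences in edges and calling were not part of that test. A ratio of at least 1.5-fold was counted. With 1 library per genotype no test between genotypes was made. The members and lists were chosen with earlier results of these data known: the 4 genes with every peak in their windows, and other lysosomal genes by name. The RefSeq table (GRCm38.p6) served only for promoters, strands and the order and spacing of genes, and the strand of Ctsb is from general knowledge. The alternatives were clipped, shortened or half-overlap windows, a stricter fold over input, other scales, another fold and joining within 1 kb.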

Additional observations from a re-analysis of the deposited data

How the results depend on the processing

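Called length kept its direction, and stayed within 1.5 times the reported percentage, under the 4 alternatives that apply to it, at each gene and in both knockouts. Of 48 alternative values of the tag ratios, 31 stayed within the counting interval's half-width of the reported one. As a share of all tags in peaks, the log2 ratio in Mfp2KO was -2.04 at Lyz2, -0.70 at Ctsd, -0.02 at Ctsb and 0.46 at Cd68. Relative to the median region it was -1.91, -0.57, 0.11 and 0.59 in Mfp2KO, and -0.97 at Ctsd, -0.68 at Ctsb and 0.81 at Cd68 in Bmal1KO. With peaks clipped to the window, Ctsd was at -0.94 in Bmal1KO and 0.02 in Mfp2KO. With the window shortened by 8 kb on each side, Cd68 was at 0.13 in Bmal1KO and at -0.09 in Mfp2KO, where the direction reversed because the higher region was then left out, and Ctsd was at -0.31 in Mfp2KO. With at least 50% of a peak required inside the window, Ctsd was also at -0.31 in Mfp2KO, since the third piece was then left out. In Mfp2KO 2 regions were lower by at least 1.5-fold relative to the median region, and 2 were higher when peaks within 1 kb were merged, each against 1. The Bmal1KO counts stayed within 1.5 times. No paired analysis was possible because each genotype has 1 library. Depth limits the weak peaks, such as those of Bmal1KO at Lyz2, which held at most 10.8 tags each. Each list has its own input and tag minimum, so the absence of a peak is not the absence of the mark.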
